A study of Mus musculus with 26 samples.

Results

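The mRNAs of the nuclear-encoded complex I subunits were followed through total RNA and immunoprecipitates of mouse brown fat. Members were taken by symbol, as genes named Nduf followed by a, b, c, s or v and a number, or Ndufab1, and assembly factors named Ndufaf were left out. The rule found 37 genes among 9378, of which 7 encode core subunits (among them Ndufv1, Ndufv2, Ndufs1, Ndufs3, Ndufs7 and Ndufs8) and 30 accessory subunits. Ndufa4 was kept by the rule, although it is now often counted as a complex IV subunit. Ndufb1 and the mitochondrially encoded core subunits were not analysed here.

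Respiratory complex I passes electrons from NADH to ubiquinone and pumps protons across the inner mitochondrial membrane. A small conserved core carries the flavin, the iron-sulfur clusters and the proton channels, and many accessory subunits surround it and help it assemble. Core proteins are split between the nuclear genome, which encodes those of the arm that reaches into the matrix, and mitochondrial DNA, which encodes those of the membrane arm. Brown fat is packed with mitochondria and burns fuel for heat, with complex I at the head of the respiratory chain and the uncoupling protein Ucp1 dissipating the proton gradient.

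Brown fat accounts for 12 of the 26 samples of the series, and the other 14, from liver, were not analysed here. The animals were C57Bl/6J males aged 10 weeks, fed normal chow and held at 4 °C overnight, either wild type or Imp2-/- from matings of Imp2+/- parents. IMP2, the product of Igf2bp2, is an RNA-binding protein, and the libraries hold either total RNA or RNA pulled down with an antibody to IMP2 or with nonspecific IgG. Libraries are numbered as in their titles. The knockout table holds wild-type total RNA (16, 17), wild-type IMP2 immunoprecipitates (21, 22), knockout total RNA (18, 19) and knockout immunoprecipitates made with the IMP2 antibody (23, 24). It lists 1189 genes, including 33 members, 5 of them core. A separate IgG table lists all 37 members and holds wild-type total RNA (15, 20), 1 wild-type IMP2 immunoprecipitate (25) and 1 wild-type IgG immunoprecipitate (26). The labels do not say whether libraries of a group come from separate animals, and p-values therefore measure only the spread between these libraries. The knockout removes IMP2 from the whole animal, and its immunoprecipitates show what the antibody preparation recovers without its target.

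Libraries of the knockout table summed to between 780333 and 4916160 gene counts, and those of the IgG table to between 1321758 and 3750101. The members took 4.92 to 6.47% of the gene counts of a library in the former and 2.74 to 4.46% in the latter. Levels are given as CPM, a gene's share of the counts of the listed genes after scaling, and do not measure how much RNA was recovered. The brown fat markers Ucp1, Cidea, Dio2, Cox8b and Cox7a1 were present in every library of the knockout table, with a summed level of 25160 to 33860 CPM. Dio2, the deiodinase that activates thyroid hormone, stood apart in knockout libraries 18 (58.3 CPM) and 23 (90.1), against 349.7 to 697 in the other 6. Skeletal muscle markers, 8 of them in the knockout table and none at 0, varied far more. They summed to 2701 and 10520 CPM in wild-type total RNA, 1540 and 7248 in wild-type immunoprecipitates, 596 and 2470 in knockout total RNA, and 363 and 1384 in knockout immunoprecipitates. Libraries 17 and 22 had the highest levels. Markers of macrophages, endothelium and fibroblasts are in the IgG table only (3, 4 and 5 genes), with summed levels of at most 42.2, 195 and 336 CPM. In the IgG table, 15 muscle markers summed to 18170 and 9903 CPM in total RNA, 9706 with the IMP2 antibody and 6740 with IgG. The mRNA of the targeted gene, Igf2bp2, is not among the genes of the knockout table used here, so that table gives no check of the genotype. In the IgG table Igf2bp2 had only 20 and 16 counts in total RNA, 8 with the IMP2 antibody and 16 with IgG.

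Nuclear respiratory genes are known targets of nuclear respiratory factor 1 (NRF1), and the promoters of the members were searched for its palindromic motif. RefSeq promoters (GRCm38.p6, the assembly also called mm10), running from 250 bases before to 50 after the start, matched 33 of the 37 members with 35 windows. The letters searched were GCGCA, any base, then GCGC. They were found, on either strand, in 8 of the 35 windows (22.9%), against 4.6% of 32851 promoters of all genes and 12.9% of 1083 promoters of genes in the knockout table. These 8 windows belong to 7 of the 28 accessory genes that have one, since Ndufa5 has a match in both of its overlapping windows, and none of the 5 core genes had a match. The YY1 letters AANATGGCG were in 7 windows (20%, against 2.38% of all promoters and 7.94% of those of the knockout table) and the ETS letters CCGGAAGT in 1 (2.86%, against 3.89 and 9.23%). The ERRA letters TCAAGGTCA were in none (against 0.423 and 0.185%). Both strands were searched, each motif was counted on its own with overlaps allowed, and a match describes letters only. The 250 bases before the start are shown, 5′ to 3′, for the core subunit Ndufv1 (minus strand, chr19:4012756-4013005), which stood above total RNA in every immunoprecipitate, for the accessory subunit Ndufs6 (minus strand, chr13:73328483-73328732), which stood below it, and for Ndufb4 (minus strand, chr16:37654369-37654618), which holds the most NRF1 matches. Capitals mark NRF1 matches.
Ndufv1: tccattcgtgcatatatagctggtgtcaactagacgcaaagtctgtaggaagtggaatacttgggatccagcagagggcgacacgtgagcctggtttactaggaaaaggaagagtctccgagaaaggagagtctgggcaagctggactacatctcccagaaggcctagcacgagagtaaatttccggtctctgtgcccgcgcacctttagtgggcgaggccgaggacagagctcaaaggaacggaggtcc
Ndufs6: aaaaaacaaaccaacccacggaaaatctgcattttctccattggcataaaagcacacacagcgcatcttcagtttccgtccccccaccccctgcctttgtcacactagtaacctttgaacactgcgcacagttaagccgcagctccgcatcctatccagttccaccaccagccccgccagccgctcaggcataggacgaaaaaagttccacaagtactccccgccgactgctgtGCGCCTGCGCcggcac
Ndufb4: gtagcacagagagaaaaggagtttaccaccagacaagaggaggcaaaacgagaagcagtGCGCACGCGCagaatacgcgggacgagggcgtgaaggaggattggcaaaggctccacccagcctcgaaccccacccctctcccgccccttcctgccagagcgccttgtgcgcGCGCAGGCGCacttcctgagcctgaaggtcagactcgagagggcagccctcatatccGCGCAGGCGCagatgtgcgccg

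The first comparison asks which complex I mRNAs were over- or under-represented in wild-type IMP2 immunoprecipitates relative to wild-type total RNA. Core mRNAs Ndufs7 and Ndufv1 and the accessory mRNA Ndufa9 were higher, and 6 accessory mRNAs were lower. Of the 33 members, 3 were called higher, against a background of 9.92% of the 1189 genes tested, and 6 lower, against 12.4% (edgeR, adjusted p under 0.05, 2 libraries a group). Over the 33 members the median log2 ratio was -0.06, against 0.01 over all genes. Among core subunits 2 of 5 were higher and 0 lower, with a median of 0.30. Among accessory subunits 1 of 28 was higher and 6 lower, with a median of -0.08. By position, the matrix arm gave 3 higher and 3 lower of 14, and the membrane arm 0 higher and 3 lower of 18.

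Ndufs7 (chr10:80249105-80256794) encodes the core subunit that holds the last iron-sulfur cluster before ubiquinone. Its level was 1036 and 1177 CPM in wild-type total RNA and 2025 and 2449 in the immunoprecipitates. In knockout libraries it was 1087 and 1015 CPM in total RNA and 1956 and 1732 in the immunoprecipitates. Every immunoprecipitate stood above every total RNA library, in both genotypes. The log2 ratio over total RNA was 1.02 ± 0.13 (SE; adjusted p = 0.00171) in the wild type, the largest of the 33 members. Ndufv1 (chr19:4007499-4012755), which binds the flavin and oxidises NADH, had 1109 and 1015 CPM in wild-type total RNA and 1929 and 2107 in the immunoprecipitates. Its groups did not overlap either, with a log2 ratio of 0.93 ± 0.13 (adjusted p = 0.00239). How many of all listed genes had groups without overlap was not counted, here or in later comparisons. Ndufa9 (chr6:126821863-126849144), a matrix arm subunit that binds NADPH, had 499 and 494 CPM in total RNA against 766 and 719 in immunoprecipitates, a log2 ratio of 0.58 ± 0.13 (adjusted p = 0.0176). Its gene overlaps that of a long noncoding RNA, 1700018A23Rik, and it is not known whether the counts used strand. Ndufs7 likewise overlaps a tRNA gene. Other members that overlap another gene include Ndufb11 (263 bases of the protein-coding Rbm10), Ndufa1, Ndufa2, Ndufa10, Ndufa13, Ndufs1 and Ndufv2.

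The other core mRNAs did not pass the threshold. Ndufv2 (-0.08 ± 0.14) and Ndufs8 (-0.15 ± 0.18), both iron-sulfur proteins, had ratios within their errors. The core mRNAs were thus not uniform. Their summed level was 6280 and 6578 CPM in wild-type total RNA and 8477 and 9383 in immunoprecipitates, while that of the 28 accessory mRNAs was 55110 and 58500 against 44830 and 54220.

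The lower mRNAs encode small accessory proteins of both arms. Ndufc1 (chr3:51405479-51408955), a membrane arm subunit, had 1363 and 1009 CPM in wild-type total RNA and 667 and 608 in immunoprecipitates (log2 ratio -0.90 ± 0.18, adjusted p = 0.0101). Ndufa12 (chr10:94199035-94221440), a matrix arm subunit, had 821 and 926 CPM in total RNA and 430 and 535 in immunoprecipitates (-0.86 ± 0.15, adjusted p = 0.00547). Ndufa6, which docks the acyl carrier protein Ndufab1, had 2074 and 1700 CPM against 1135 and 958 (-0.85 ± 0.15, adjusted p = 0.00574). For these genes each immunoprecipitate was below each total RNA library. Ndufb9 (-0.66 ± 0.15), Ndufv3 (-0.49 ± 0.13) and Ndufb11 (-0.39 ± 0.11) were also lower, with adjusted p-values of 0.0177, 0.0304 and 0.0407. The 24 members that were not called ran from -0.59 (Ndufa3) to 0.52 (Ndufb3).

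**Figure D1:**
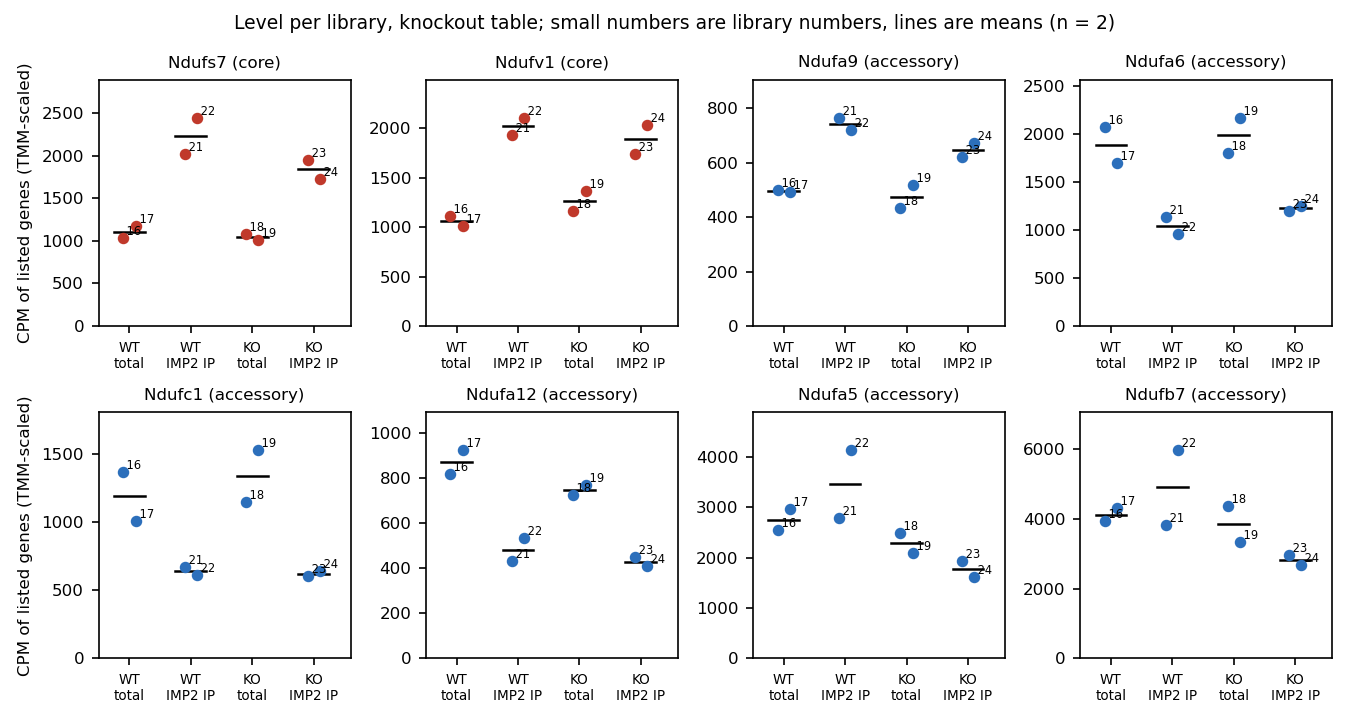
Scaled level (CPM of the listed genes) of 8 complex I mRNAs in each library of the knockout table, with 1 point per library, its library number beside it and a line at the mean of 2. Ndufs7 and Ndufv1 were higher and Ndufc1 and Ndufa12 lower in all immunoprecipitates of both genotypes, while Ndufa5 and Ndufb7 were high in wild-type immunoprecipitate 22.

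These calls rested on few libraries. Of the 9 members called in the wild type, 4 (Ndufs7, Ndufv1, Ndufa6 and Ndufa12) kept their call when each of the 8 libraries was left out in turn. The number called lower was 2 without total RNA library 16 and 3 without immunoprecipitate 22, where the share of all genes called lower was 5.13 and 7.15%. Without libraries 17 and 22, those richest in muscle markers, 1 member was called higher and 1 lower, against 0.841 and 2.61% of all genes, with 1 library left in each wild-type group and its spread taken from the knockout groups. That pair was left out after the data were seen. The 8 muscle markers themselves had a median log2 ratio of -0.41, with none called. Scaling by the upper quartile shifted the all-gene median to 0.15 and gave 6 higher and 3 lower instead of 3 and 6, against 18 and 7.91% of all genes. Library-size scaling gave 5 and 5, against 13.2 and 10%, and DESeq2 6 and 9, against backgrounds of 16.1 and 17.1%.

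The same ratio in Imp2-/- tissue shows what the IMP2 antibody preparation recovered without IMP2. Ndufs7, Ndufv1 and Ndufa9 were again higher, and 11 accessory mRNAs were lower. Of the 33 members 4 were called higher, against 10.6% of all genes, and 11 lower, against 15.7% (DESeq2 called 7 and 14, against 18.5 and 20%). The median was -0.36, against -0.01 over all genes. Core subunits had 3 of 5 higher, 0 lower and a median of 0.32, and accessory subunits 1 of 28 higher, 11 lower and a median of -0.37. The matrix arm gave 4 higher and 5 lower of 14, and the membrane arm 0 higher and 6 lower of 18.

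Ndufs7 (0.81 ± 0.13, adjusted p = 0.00341), Ndufv1 (0.58 ± 0.13, adjusted p = 0.0133), and Ndufa9 (0.44 ± 0.13, adjusted p = 0.0382) were among the higher members. Ndufv1 had 1163 and 1369 CPM in knockout total RNA and 1741 and 2033 in the immunoprecipitates. Ndufa9 had 432 and 517 CPM in knockout total RNA and 619.8 and 672 in the immunoprecipitates. In neither case did the groups overlap. Ndufv2 (-0.10 ± 0.14) and Ndufs8 (-0.38 ± 0.17) were not called, as in the wild type.

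All 3 higher and all 6 lower members of the wild type were called in the same direction in the knockout, which is 100% of the wild-type calls, and 75% and 54.5% of the knockout calls. Over all genes, 77 of 118 higher and 124 of 148 lower calls of the wild type were also made in the knockout (65.3 and 83.8%), which is 61.1 and 66.3% of the knockout calls. Ndufc1 (-1.11 ± 0.18), Ndufv3 (-0.90 ± 0.13), Ndufa12 (-0.80 ± 0.14), Ndufb9 (-0.77 ± 0.15), Ndufb11 (-0.71 ± 0.11) and Ndufa6 (-0.70 ± 0.15) were lower in both genotypes. The other 5 lower members passed only the knockout test, and the difference between genotypes was tested separately, as an interaction. Ndufa2, a matrix arm subunit with a thioredoxin-like fold, had 9468 and 7090 CPM in knockout total RNA and 4101 and 3401 in immunoprecipitates (-1.14 ± 0.26). Ndufa3, a small membrane subunit, had 4440 and 3019 CPM against 1903 and 1472 (-1.14 ± 0.30). Ndufs6 (chr13:73319876-73328482), a zinc-binding subunit of the matrix arm, had 4463 and 3288 CPM against 1997 and 1836 (-1.02 ± 0.17). The groups of these genes did not overlap. Ndufb10 (-0.95 ± 0.24) and Ndufb5 (-0.44 ± 0.10) of the membrane arm completed the set. In the wild type the immunoprecipitates of Ndufa2 (-0.49 ± 0.25), Ndufs6 (-0.47 ± 0.17), Ndufb10 (-0.50 ± 0.24) and Ndufb5 (-0.16 ± 0.10) were also below both total RNA libraries, without a call, and those of Ndufa3 overlapped them.

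Across the 33 members the wild-type and knockout log2 ratios, which share no library, had a Pearson r of 0.892 and a Spearman rho of 0.864, against 0.904 and 0.88 over the 1189 genes. Genes are not independent replicates, and these values describe the libraries. Genes whose wild-type ratio lay far below their knockout ratio are not listed, the lowest difference being -0.30. The shared calls and these correlations are therefore partly set by which genes the knockout table holds. Of the 15 members called in the knockout, 6 (Ndufs7, Ndufa12, Ndufb11, Ndufc1, Ndufs6 and Ndufv3) kept their call without each library in turn. The number called higher was 2 without library 16, 1 without library 18, 2 without library 23 and 1 without library 24. The number called lower was 7 without library 18, 7 without library 23 and 6 without library 24. Over all genes the shares called higher in those 4 settings were 9.08, 3.95, 6.22 and 4.04%, and the shares called lower in the last 3 were 8.33, 9.25 and 7.32%. Without both libraries 18 and 23, a choice made after the data were seen, most calls were lost, over all genes as among the members. The member median was then -0.29, and 9 of the 33 values were positive. Leaving out this pair leaves 1 library in each knockout group, whose spread is taken from the wild-type groups. With upper-quartile scaling the all-gene median was 0.16 and the split 7 higher and 10 lower, against 23 and 10.9% of all genes. With library-size scaling these were 0.12, and 7 and 11, against 20.7 and 12.2%. The core median exceeded the accessory median by 0.38 in the wild type and 0.69 in the knockout, and by 0.35 to 0.41 and 0.67 to 0.73 when each library was left out.

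**Figure D2:**
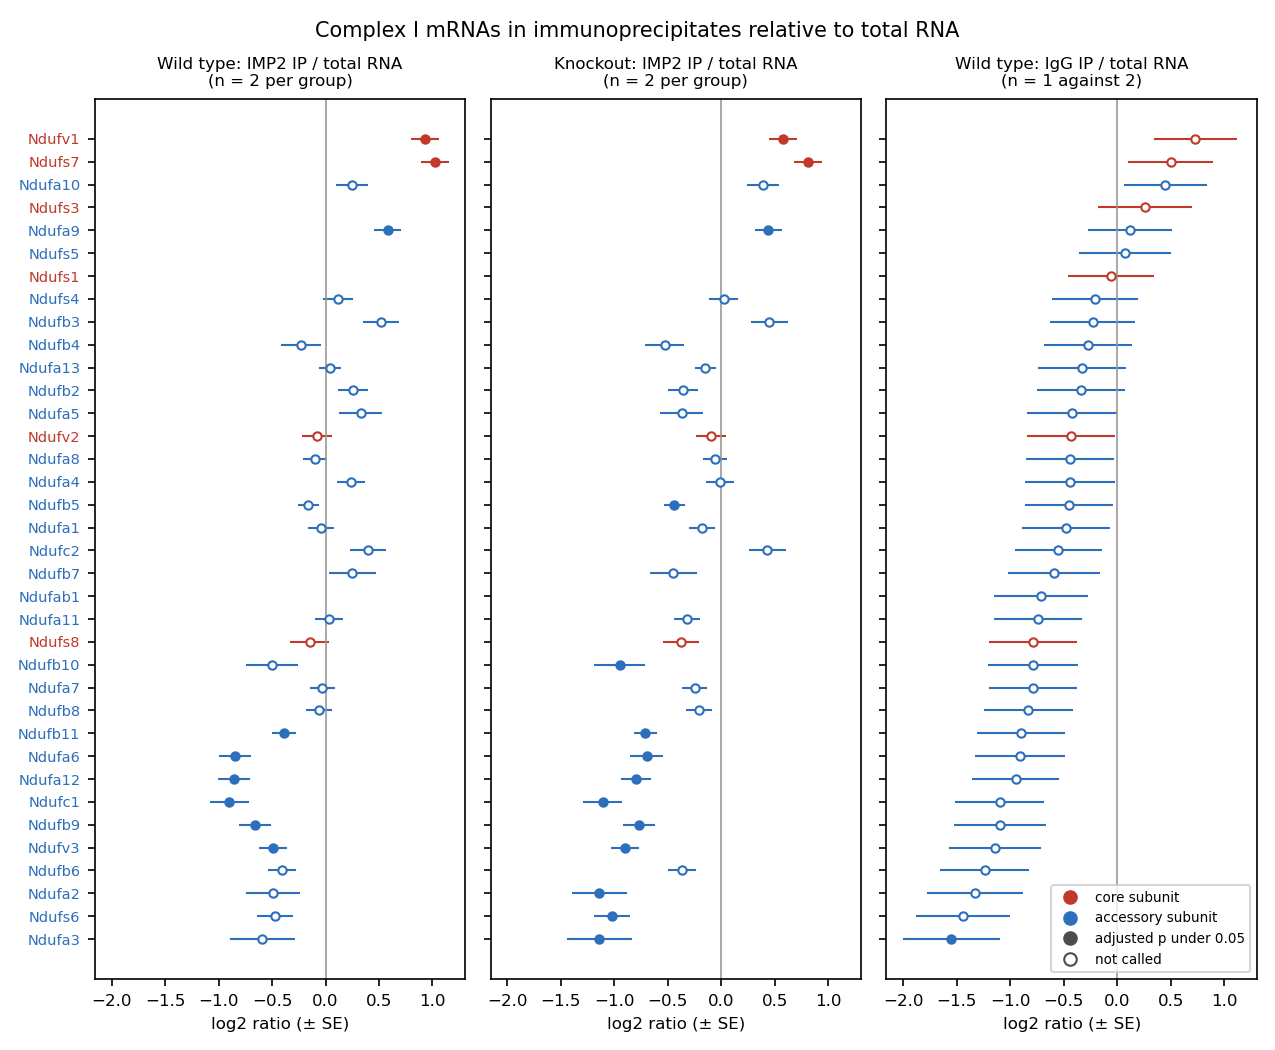
Log2 ratio (± SE) of each complex I mRNA over total RNA in wild-type IMP2, knockout IMP2-antibody and wild-type IgG immunoprecipitates, sorted by the IgG ratio, with core subunits in red, accessory subunits in blue and filled points for an adjusted p under 0.05. Ndufv1 and Ndufs7 are at the top and Ndufa3, Ndufs6 and Ndufa2 at the bottom of the IgG ratios, and 4 members have no point in the knockout table. The plot shows 36 of the 37 members.

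Whether any complex I mRNA depended on IMP2 for its recovery was tested as an interaction, the wild-type ratio over total RNA minus the knockout ratio. No member was called, and 0% of all genes were. By edgeR 2 members, Ndufb2 and Ndufa5, had an unadjusted p under 0.05, against 29 of the 1189 genes. DESeq2 and limma-voom also called none. They gave 6 and 3 such members, but the number over all genes was not counted, so no excess can be read from them. The median over the members was 0.21, against 0 over all genes, and 26 of 33 values were positive, against 592 of 1189. Whether the signs have a direction was not tested, and they describe the listed genes only. The knockout table ends at a log2 of -0.30 for this measure, with 69 genes under -0.25 and no member among them. Above 0.3 it lists 138 genes, 11 of them members. Core and accessory medians were 0.20 and 0.21, and matrix and membrane arm medians 0.21 and 0.20.

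The highest values belonged to accessory subunits. Ndufa5 had 0.70 ± 0.28, Ndufb7 0.70 ± 0.31 and Ndufa2 0.65 ± 0.36, each with an adjusted p of 0.999. Ndufb2 followed with 0.62 ± 0.20 and the smallest unadjusted p of the set, 0.0146. The lowest were Ndufa6 (-0.15 ± 0.21), Ndufa10 (-0.14 ± 0.22) and Ndufa12 (-0.06 ± 0.20). Core values were 0.35 ± 0.18 (Ndufv1), 0.23 ± 0.25 (Ndufs8), 0.20 ± 0.18 (Ndufs7) and 0.02 ± 0.20 (Ndufv2). Without immunoprecipitate 22, the values were 0.39 for Ndufa5, 0.35 for Ndufb7, 0.27 for Ndufa2 and 0.11 for Ndufa3 (0.55 with it), against 0.63 for Ndufb2. The muscle markers had a median of 0.26 in this measure. Leaving out each library in turn gave 23 to 28 positive members and medians of 0.14 to 0.25.

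**Figure D3:**
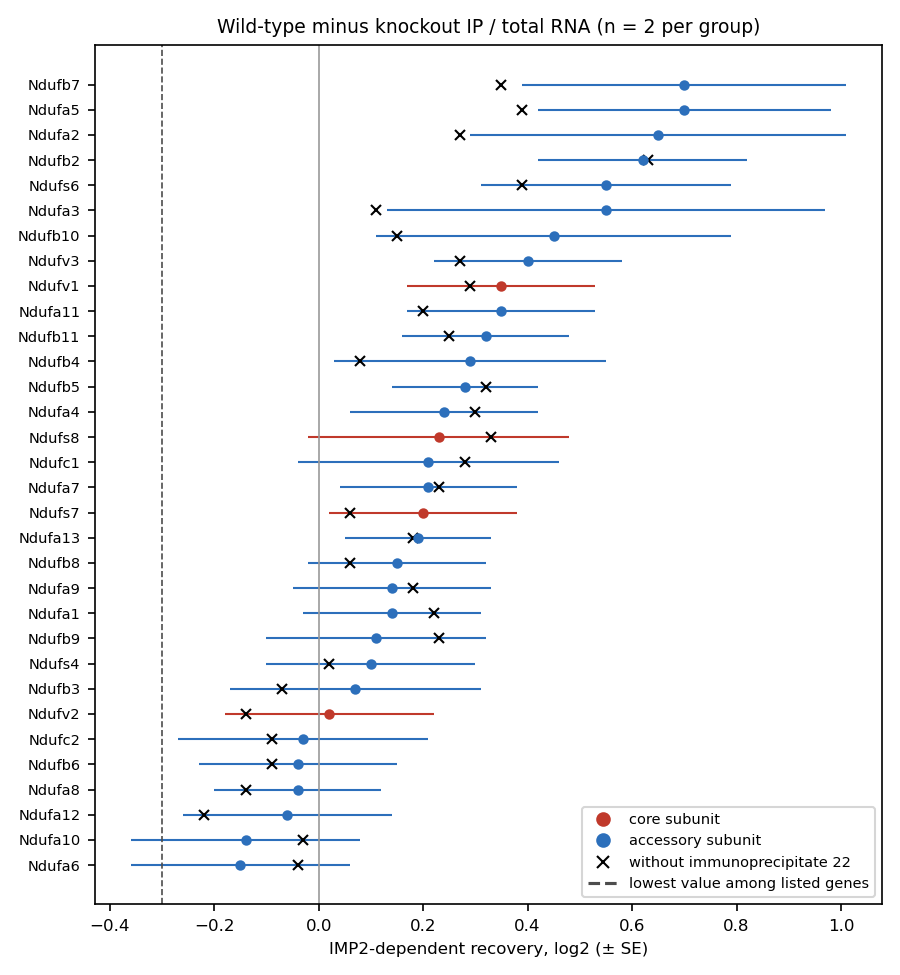
IMP2-dependent recovery (log2 wild-type minus knockout ratio over total RNA, ± SE) of 32 of the 33 members listed in the knockout table, with crosses for the value without immunoprecipitate 22 and a dashed line at -0.30, the lowest value of any listed gene. The values run from -0.15 to 0.70, none was called, and Ndufb7, Ndufa5, Ndufa2 and Ndufa3 lie lower without library 22.

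Compared directly, wild-type and knockout immunoprecipitates gave no member called by edgeR (background 0%), with 8 at an unadjusted p under 0.05, of which 7 were higher in the wild type. The median was 0.16, against 0.01 over all genes. Ndufa5 (chr6:24518662-24527690), a matrix arm subunit, had 2789 and 4146 CPM in wild-type immunoprecipitates and 1932 and 1620 in knockout ones (0.96 ± 0.20, adjusted p = 0.129). Ndufb7, a subunit on the intermembrane side, had 3828 and 5981 CPM against 2963 and 2663 (0.80 ± 0.22, adjusted p = 0.153). Their groups did not overlap, a pattern whose share over all genes was not counted. Library 22 was the higher wild-type library for both. Ndufa2 (0.78 ± 0.26) and Ndufa3 (0.78 ± 0.30) followed, with 4981 and 7937 CPM against 4101 and 3401 for Ndufa2. DESeq2 called 3 members higher (Ndufa2, Ndufa5 and Ndufb7), against 5.05% of all genes, and none lower, against 2.78%.

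The lowest values in that comparison were those of Ndufa10 (-0.38 ± 0.15), Ndufa6 (-0.23 ± 0.15) and Ndufc2 (-0.13 ± 0.17). Core values ran from -0.06 (Ndufs8) to 0.28 (Ndufs7), with Ndufv2 at 0.16 and Ndufv1 at 0.10. All 8 muscle markers were higher in value in the wild-type immunoprecipitates, with a median log2 of 2.21. Without library 22 the log2 values were 0.65 for Ndufa5, 0.44 for Ndufb7, 0.41 for Ndufa2 and 0.34 for Ndufa3. Of the 33 members, 17 were higher in library 22 than in 21 and in 17 than in 16, as the summed muscle markers were. Among these 17, 10 (Ndufa2, Ndufa3, Ndufa5, Ndufb4, Ndufb7, Ndufb8, Ndufb10, Ndufs6, Ndufs7 and Ndufv2) were lower in 19 than in 18 and in 24 than in 23, while the muscle markers summed higher in 19 and 24. How many of all listed genes followed either pattern was not counted, so these numbers describe the members only. The part that muscle RNA had in these differences was not tested.

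Tissue levels themselves showed no called difference between genotypes. Knockout over wild-type total RNA gave 0 of 33 members (background 0%). By edgeR 2 members had an unadjusted p under 0.05, against 132 of the 1189 genes. DESeq2 called 1.51% of all genes higher and 1.43% lower but no member. The median was 0.09, against 0 over all genes. Ndufb5 (0.35 ± 0.10), Ndufb11 (0.31 ± 0.11) and Ndufs8 (0.28 ± 0.17) were highest, and Ndufa5 (-0.27 ± 0.20), Ndufb4 (-0.25 ± 0.18) and Ndufb3 (-0.24 ± 0.17, but 0.01 without library 17) lowest. The core mRNAs Ndufv1 (0.25 ± 0.13), Ndufs7 (-0.07 ± 0.13) and Ndufv2 (-0.14 ± 0.14) had adjusted p-values of 0.512 and above. The muscle markers had a median of -2.01 in the same comparison, and fewer cells of a type and less RNA per cell cannot be told apart in bulk tissue.

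The IgG table adds a nonspecific immunoprecipitate and the members Ndufs1, Ndufs3, Ndufs5 and Ndufab1, but with 1 library in each immunoprecipitate group and 2 of total RNA it leaves 1 residual degree of freedom. IgG over total RNA gave 1 member lower, Ndufa3 (-1.55 ± 0.45, adjusted p = 0.0329), against 1.53% of 8966 genes, and none higher (background 0.48%, and 2.01% in either direction). Ndufa3 had 4285 and 2767 CPM in total RNA and 1204 in the IgG immunoprecipitate. That call was lost under the other scalings, without the filter on low counts and with DESeq2. Ndufs6 (-1.44 ± 0.44) and Ndufa2 (-1.33 ± 0.45) were next, and Ndufv1 (0.73 ± 0.39), Ndufs7 (0.50 ± 0.40) and Ndufa10 (0.45 ± 0.39) were the highest. The 15 muscle markers had a median of -1.18, with 5 called lower.

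The median of the 37 members over total RNA was -0.48 in the IgG immunoprecipitate, against -0.01 over all genes, with 0.05 for core and -0.65 for accessory subunits. Ndufs3 (0.26 ± 0.44), Ndufs1 (-0.06 ± 0.40), Ndufv2 (-0.43 ± 0.41) and Ndufs8 (-0.79 ± 0.41) were other core values. The IgG ratios and the knockout ratios share no library. Over the 33 members of both tables they had a Pearson r of 0.868 and a Spearman rho of 0.831, against 0.701 and 0.672 over 1189 genes. The wild-type IMP2 ratios of the knockout table, set against the same IgG ratios, gave 0.835 and 0.819, against 0.642 and 0.615. These values are a description of libraries scaled in separate tables.

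The IMP2 immunoprecipitate of the IgG table was set against the same total RNA, so its ratios share those controls with the IgG ratios. No member was called (background 0.0446% higher and 0.859% lower, 0.903% in all). None had an unadjusted p under 0.05 in edgeR's test, against 710 of the 8966 genes. The median was 0.04, with 0.25 for core and -0.01 for accessory subunits. Ndufs7 (0.75 ± 0.39), Ndufs5 (0.65 ± 0.44) and Ndufv1 (0.62 ± 0.40) were highest, and Ndufa12 (-0.70 ± 0.41), Ndufb6 (-0.66 ± 0.41) and Ndufa3 (-0.65 ± 0.43) lowest. The counts of Ndufs5 cannot be assigned to it alone, as set out below. Other core values were Ndufs3 0.25, Ndufv2 -0.25, Ndufs1 -0.31 and Ndufs8 -0.39.

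Set directly against IgG, the IMP2 immunoprecipitate had no member called (background 0.0558% higher and 0.178% lower, 0.234% in all). In edgeR's test 3 members had an unadjusted p under 0.05, against 562 of the 8966 genes. The median was 0.48, against 0 over all genes (the latter -0.19 under library-size scaling). Of the 37 values 33 were positive, against 4466 of the 8966 genes. Here the accessory median (0.58) lay above the core median (0.18), the reverse of the ratios over total RNA. DESeq2 and limma-voom also called no member here or in the IMP2 ratio over total RNA. All 19 membrane arm members were positive, with a median of 0.58, and the 16 matrix arm members had a median of 0.26. The highest were Ndufs6 (1.08 ± 0.48), Ndufb2 (0.95 ± 0.47) and Ndufa7 (0.93 ± 0.46). The lowest were Ndufs1 (-0.25 ± 0.47), Ndufv1 (-0.11 ± 0.47) and Ndufs4 (-0.06 ± 0.46).

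Ndufs6 had 2320 CPM in the IMP2 immunoprecipitate, 1094 in the IgG immunoprecipitate and 2458 and 3473 in total RNA. Its high ratio therefore came with a low IgG value, and the IMP2 value was below both total RNA libraries. Ndufv1 had 1126 CPM with IMP2 and 1217 with IgG, against 507 and 959 in total RNA, so both immunoprecipitates stood above both total RNA libraries, with the IgG value the higher. Ndufs1, the large iron-sulfur subunit listed only here, had 106.9 CPM with IMP2 (exact 95% Poisson interval 89.7 to 126), 127 with IgG (116 to 138), and 99.2 and 165 in total RNA. Ndufs3 had 40.1 and 40.3 CPM in the immunoprecipitates and 20.4 and 45.1 in total RNA. Other core values over IgG were Ndufs8 0.40, Ndufs7 0.25, Ndufv2 0.18 and Ndufs3 -0.01. Intervals cover counting error only.

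Ndufs5 and Ndufab1 were the other members listed only in the IgG table. The counts of Ndufs5 are identical to those of BC002163, so they cannot be assigned to Ndufs5 alone. Ndufab1, the mitochondrial acyl carrier protein, had 65.2 CPM with IMP2 and 38.6 with IgG, and 59.1 and 67.1 in total RNA. All 15 muscle markers were detected in these libraries, 12 of them higher in value with IMP2 than with IgG, with a median log2 of 0.55. Their part in the ratios of the members was not tested.

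**Figure D4:**
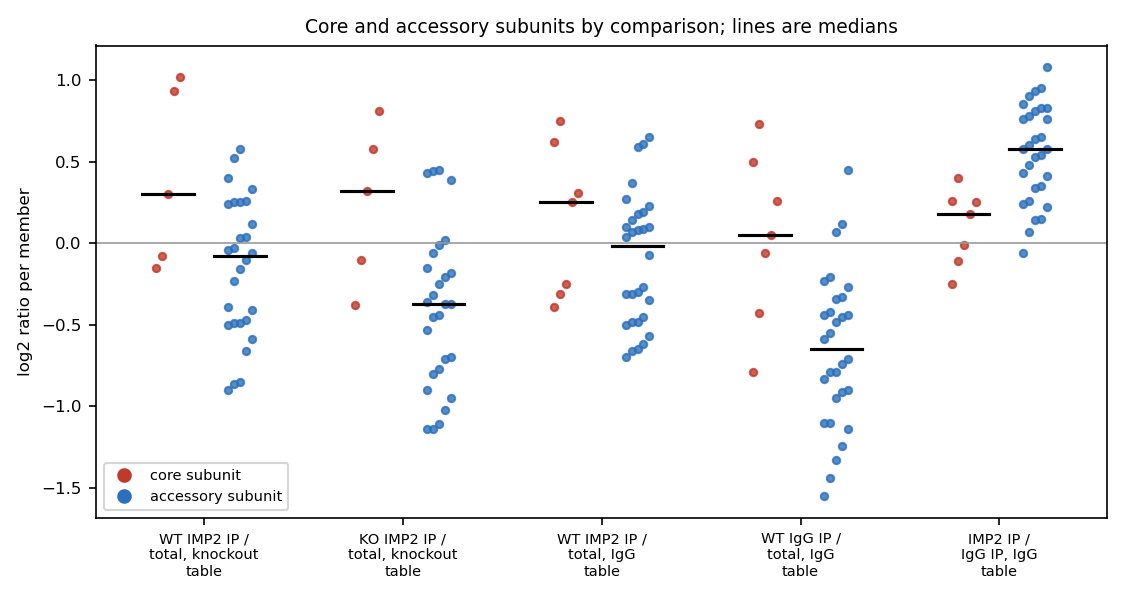
Log2 ratios of core (red) and accessory (blue) complex I mRNAs in 5 comparisons, 1 point per member and a line at each median. Core medians lie above accessory medians in all 4 ratios over total RNA, and below in the ratio of IMP2 over IgG.

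Taking all 12 libraries and the 1189 genes of both tables in 1 model, with a term for the table, gave 3 wild-type IMP2 immunoprecipitates and 4 wild-type total RNA libraries. In that model 2 members were higher in wild-type immunoprecipitates than in total RNA, Ndufs7 (0.86 ± 0.14) and Ndufv1 (0.76 ± 0.21), against 14% of genes. Another 8 were lower, against 14.5%: Ndufa12 (-0.84 ± 0.13), Ndufc1, Ndufa6, Ndufb9, Ndufb10, Ndufb6, Ndufs6 and Ndufb11 (-0.47 ± 0.16). The core mRNAs Ndufv2 (-0.19 ± 0.14) and Ndufs8 (-0.29 ± 0.28) were not called. DESeq2 gave 2 higher and 11 lower, against 19.2 and 19.9%. The number called lower was 2 without library 16, 4 without 17, 3 without 21 and 1 without 25, against 9.5, 9.84, 10.8 and 8.41% of all genes. It was 5 without any 1 of libraries 20, 22, 23 and 24, against 14.9, 10.3, 13 and 13.2%. The number called higher was 5 without library 20, against 15.5% of all genes. It was 1 without any 1 of libraries 16, 17 and 22, against 8.07, 8.83 and 9.34%.

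In the same model IMP2 over IgG gave no member called (background 0.336% higher and 1.26% lower, 1.6% in all). By edgeR 4 of the 33 members had an unadjusted p under 0.05, against 228 of the 1189 genes. The median was 0.28, against 0.05 over all genes. The highest values were those of Ndufs6 (0.81 ± 0.27, adjusted p = 0.154), Ndufa3 (0.70 ± 0.40) and Ndufa7 (0.64 ± 0.18, adjusted p = 0.105), and the lowest those of Ndufa10 (-0.23 ± 0.34), Ndufv1 (-0.21 ± 0.33) and Ndufs4 (-0.12 ± 0.24). Core values were 0.28 for Ndufs8, 0.14 for Ndufs7 and 0.03 for Ndufv2. DESeq2 called Ndufs6 and Ndufa7 higher, against 4.12% of genes, and no member lower, against 4.63%. The comparison rests on 1 IgG library.

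Other respiratory chain mRNAs were counted in the same models. Among complex I assembly factors only Ecsit and Foxred1 are in the knockout table, and both were higher in knockout immunoprecipitates (0.48 ± 0.15 and 0.55 ± 0.16), with 0.41 and 0.51, not called, in the wild type. Complex II and III subunits gave 0 higher and 0 lower of 9 in the wild type and 1 higher (Sdha, 0.49) and 3 lower in the knockout. Complex IV subunits gave 1 higher (Cox6b1, 0.75) and 3 lower of 12 in the wild type, and 0 and 5 in the knockout. ATP synthase subunits gave 0 higher and 4 lower of 10 in the wild type and 0 and 7 in the knockout, with Atp5e lowest at -1.26 and -1.72. Their medians in the knockout were -0.05, -0.40 and -0.56, beside -0.36 for complex I. The uncoupling protein mRNA Ucp1 had log2 ratios of 0.72 ± 0.27 in the wild type and 0.28 ± 0.27 in the knockout, neither of them called.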

How the data were processed

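The deposited values are whole-number read counts per RefSeq transcript, supplied by the authors without scaling. Per the submitters' processing notes, TopHat2 2.0.8, Cufflinks 2.1.1 and mm10 were used. How transcripts were counted, with which annotation, whether by strand and why the shorter table lists fewer of them is not given in the sources used here. Every gene of the shorter table, the knockout table, had at least 101 counts in each of its wild-type libraries. Its background shares hold for that list of genes only. Blank symbols were filled by accession from RefSeq. Rows still without a gene name (3 and 22) took 7.39 to 29.2% of a library's counts and entered neither library sizes nor tests. For each symbol the row with the highest summed count was kept. For Ndufs6 this is a noncoding variant whose counts are nearly those of the coding transcript.

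Counts were scaled by TMM and tested with the quasi-likelihood test of edgeR 4.0.16 (limma 3.58.1, R 4.3.3) after its filter on low counts, which all members passed, with Benjamini-Hochberg adjustment over all genes tested and a threshold of 0.05. All groups of a table were fitted together, with 4, 1 and 6 residual degrees of freedom for the knockout table, the IgG table and both. The groups of 1 library were assumed to vary like total RNA. The biological coefficient of variation was 15.3, 25.1 and 16.3%. Chi-square per degree of freedom between replicate libraries was 13.7 to 98.6, above counting error. Alternatives were other scalings and filters, DESeq2 1.42.0, limma-voom, summed rows and leaving libraries out. The code was tested on simulated data.

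Members and gene lists were chosen with earlier results of these data known. Named with values were the core subunits, the members called in a comparison (where fewer than 2 passed, the 3 highest and 3 lowest), up to 2 extremes of other lists, Igf2bp2 and Ucp1. Other members are named for their counts. Values of 1 member are not reported here, although it is included in the counts, sums and medians. A planned ranking of members by level per coding length was not made, since transcript lengths were not used here.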

Additional observations from a re-analysis of the deposited data

How the results depend on the processing

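No paired analysis was made. The labels give the groups no shared replicate numbers and do not tie an immunoprecipitate to a total RNA library. Dio2 was low in both 18 and 23, and muscle markers were highest in both 17 and 22. A pairing read from such values was not used, so the tests ignore any that exists. Of the counts of called members and the core minus accessory differences over total RNA in each genotype, 307 kept their size under an alternative and 42 did not. A count kept its size within a ratio of 1.5, and a difference within its spread. Values of single members, member medians and the other core minus accessory differences were tallied together. Of these, 1479 were labelled the same. For a single member this means the same sign and call, whatever its size, and for medians and differences a shift within their spread. Among single members 34 changed sign, 75 lost a call and 3 gained one. Another 23, all medians or differences, moved by more than their spread. In wild-type immunoprecipitates over total RNA, members called higher numbered 6 under upper-quartile scaling and with DESeq2, 5 under library-size scaling and 1 without libraries 17 and 22, and members called lower 3 under upper-quartile scaling and 1 without libraries 17 and 22. In the knockout, 7 were called higher under upper-quartile and library-size scaling and with DESeq2, and most calls were lost without libraries 18 and 23, as over all genes. In wild-type over knockout immunoprecipitates DESeq2 called 3 higher. In IgG over total RNA none was called lower (0) under RLE, upper-quartile and library-size scaling, without a filter and with DESeq2 (background 0.402 to 1.59%). Limma-voom called 2 lower there, against 1.75% of all genes. With both tables, DESeq2 called 2 higher in IMP2 over IgG, against 4.12%. In that model 3 and 4 were lower than in total RNA under upper-quartile and library-size scaling, against 9.76 and 10.7%. Leaving out 1 library at a time gave 2 to 3 higher and 2 to 6 lower in the wild type, 1 to 4 and 6 to 11 in the knockout, and 1 to 5 and 1 to 9 with both tables. The cause of these shifts was not tested. Values of single members that changed sign were not called. In the wild type over total RNA, Ndufv2 was 0.06 under upper-quartile scaling and -0.24 to 0.06 with 1 library left out. In the knockout it was 0.07 under upper-quartile and 0.03 under library-size scaling, 0.05 without libraries 18 and 23, and -0.22 to 0.07 with 1 left out. For IMP2-dependent recovery Ndufv2 was -0.01 and -0.05 under these scalings, -0.04 without libraries 17 and 22, -0.12 without 18 and 23, and -0.14 to 0.14 with 1 left out. With 1 library left out, Ndufa10 there ran from -0.31 to 0.05 and Ndufa12 from -0.22 to 0.07, and Ndufa12 was 0.02 without libraries 18 and 23. In wild-type over knockout immunoprecipitates Ndufs8 was 0.05 without libraries 17 and 22 and -0.21 to 0.07 with 1 left out, and Ndufv1 was -0.05 without 18 and 23 and -0.05 to 0.20 with 1 left out. In knockout over wild-type total RNA, Ndufb3 (0.01) and Ndufs7 (0.02) changed sign without libraries 17 and 22, and ran from -0.45 to 0.01 and -0.16 to 0.02 with 1 left out. In IMP2 over IgG, Ndufs3 was 0.01 under RLE scaling, with DESeq2 and with summed rows and 0 with limma-voom, and Ndufv2 was 0 under library-size scaling. In IgG over total RNA Ndufs1 was 0.10 under library-size scaling. In the IgG table, leaving out a total RNA library leaves no residual degrees of freedom and was not fitted.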
